A study of Mus musculus with 9 samples.

Results

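Elastic fiber and microfibril genes were followed through control, bleomycin and bleomycin plus nitrate skin of mice. The 10 genes, chosen by symbol, were Eln, Fbn1, Fbn2, Fbln1, Fbln2, Fbln5, Efemp2, Mfap4, Mfap5 and Emilin1, out of 54532 genes in the deposited expression table. An elastic fiber has a core of cross-linked elastin laid down on a scaffold of fibrillin microfibrils. Fibulins and lysyl oxidases bring elastin monomers to that scaffold and join them, and microfibrils also hold latent TGF-beta in the matrix. In skin these fibers give the dermis its recoil, and their wear and disorder mark aged and fibrotic skin.

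RNA of skin biopsies was sequenced in 9 libraries, 3 from healthy controls, 3 from mice given bleomycin and 3 from mice given bleomycin and treated with nitrate on the skin. All mice were labelled wild type. Bleomycin, a DNA-damaging antibiotic, is a standard means of producing scleroderma-like skin in mice, and nitrate can be reduced in tissue to nitrite and nitric oxide. The sources used here give no doses, times, strain, sex, age or biopsy site, and do not say whether the libraries of a group came from separate animals. The p-values therefore cover the spread among libraries and nothing beyond it. The 3 groups are called control, bleomycin and nitrate below, and every nitrate library had also received bleomycin.

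Levels are in FPKM, reads scaled to gene length and to a factor per library, so genes can be compared with each other within a library. That factor was not the total of recovered reads alone, and its kind is not stated. Nitrate 2 had 6920 Eln reads and 46.6 FPKM, and control 2 had 6830 reads and 50.2 FPKM. Yet nitrate 2 had the smaller total of recovered reads, 17841105 against 18352592. Differences between groups include this scaling. Whole reads recovered from the table came to 15804050 to 18352592 per library, of which 17532 to 30870 fell on the 10 genes, and the fewest on any one of them was 196 reads, for Mfap5 in control 1. All 10 genes stood at 1 FPKM or more in all 9 libraries and all were tested. Differences are of log2(FPKM + 1) ± standard error from limma, in which the added 1 understates the change of low genes such as Fbn2. A gene is said to rise or fall where the Benjamini-Hochberg adjusted p of limma's two-sided test, over 14645 genes, was below 0.05.

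The libraries differed in tissue content. Marker lists are given as the mean log2(FPKM + 1) of their genes, and no marker had 0 reads throughout. Epidermal keratinocyte markers, which define skin, stood at 6.76 to 7.61 in control, 8.38 to 8.98 in bleomycin and 7.92 to 8.66 in nitrate, with 3 of 8 genes higher in bleomycin than in control. Dermal fibroblast markers stood at 5.48 to 5.96, 4.85 to 5.40 and 5.05 to 5.55, with 1 of 12 lower (Cd34), and smooth muscle markers at 4.55 to 4.65, 3.71 to 3.82 and 3.44 to 3.83, with 2 of 8 lower. Endothelial markers stood at 4.11 to 4.31, 3.47 to 3.66 and 2.94 to 3.72 (1 of 8 lower), and fat cell markers at 6.05 to 6.73, 5.23 to 5.65 and 3.85 to 5.502 (1 of 8 lower). Leukocyte markers stood at 3.05 to 3.55, 3.86 to 4.33 and 2.62 to 3.64 (1 of 6 tested higher). Skeletal muscle markers ranged over 10.2 to 10.8, 7.93 to 10.1 and 7.60 to 9.58, and cartilage markers over 0.42 to 0.82 with 6 of 8 below the filter on low values. Markers of the growing hair follicle split the groups, with replicates 1, 2 and 3 of control at 0.23, 3.57 and 5.58, of bleomycin at 1.28, 5.24 and 6.50 and of nitrate at 7.41, 5.37 and 8.03. None of the 17 hair follicle genes passed in any comparison. Over all tested genes 4.74% were called higher and 3.69% lower in bleomycin than in control. In such whole tissue, fewer cells of a type and less RNA per cell cannot be told apart.

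Promoter windows in the RefSeq table, 250 bases before to 50 after an annotated start in build GRCm38.p6, were held for 6 of the 10 genes, in 10 windows. The windows of Fbln2 and Emilin1 are shown because both genes stood higher in all bleomycin than in all control libraries, and that of Fbn1 because it did not. Capitals mark a GC box in the Fbln2 and Fbn1 windows (GGGCGG on either strand) and a SMAD box in the Emilin1 window (CAGAC, the letters bound by SMAD proteins of the TGF-beta pathway).
Fbln2 (chr6:91212514-91212813, plus strand): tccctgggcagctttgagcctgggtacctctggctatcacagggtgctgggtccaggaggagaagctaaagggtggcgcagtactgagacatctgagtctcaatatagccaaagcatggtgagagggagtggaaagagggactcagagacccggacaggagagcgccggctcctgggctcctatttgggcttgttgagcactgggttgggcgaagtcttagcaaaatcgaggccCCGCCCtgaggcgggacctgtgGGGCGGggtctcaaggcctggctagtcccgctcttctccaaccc
Emilin1 (chr5:30913536-30913835, plus strand): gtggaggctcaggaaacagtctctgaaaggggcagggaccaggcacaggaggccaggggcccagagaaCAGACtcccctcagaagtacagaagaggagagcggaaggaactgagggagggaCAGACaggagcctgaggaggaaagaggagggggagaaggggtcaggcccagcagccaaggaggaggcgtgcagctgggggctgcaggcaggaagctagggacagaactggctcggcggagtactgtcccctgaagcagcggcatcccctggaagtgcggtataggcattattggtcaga
Fbn1 (chr2:125506389-125506688, minus strand): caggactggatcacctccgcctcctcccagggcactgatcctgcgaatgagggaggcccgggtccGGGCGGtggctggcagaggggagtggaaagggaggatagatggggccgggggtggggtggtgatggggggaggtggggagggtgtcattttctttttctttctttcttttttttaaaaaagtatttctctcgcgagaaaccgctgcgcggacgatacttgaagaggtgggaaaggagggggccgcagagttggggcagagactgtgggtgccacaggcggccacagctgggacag
Both strands were searched for these motifs, for the AP-1 site, spelled TGANTCA, and for the TATA box, spelled TATAAA. The Fbln2 window held 2 GC boxes, the Emilin1 window 2 SMAD boxes and the Fbn1 window 1 GC box, and the Fbln2 and Fbn1 windows held no SMAD box. Among the windows not printed, SMAD boxes stood in those of Fbln1 (the same 2 in each, as its windows overlap), of Fbln5 (1 and 2) and in an Efemp2 window (2). GC boxes also stood in windows of each of these genes. Among 32851 windows of the same 300 bases, 49.59% held the SMAD box, 35.66% the GC box, 7.808% the AP-1 site and 13.62% the TATA box, and neither of the last 2 motifs occurred in the 10 windows of these genes. A match describes the letters and shows no binding.

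In control skin the transcripts of the scaffold and core were abundant and those of the fetal fibrillin scarce. Mfap4, a fibrinogen-related glycoprotein that binds elastin and fibrillin, had the highest mean at 93.7 ± 55.4 FPKM (SD, n = 3), followed by Eln at 39.2 ± 9.58, Fbn1 at 35.3 ± 10.9 and Fbln2 at 35.3 ± 3.22. Each of these overlapped the next within 1 SD. Fbn2 was the lowest of the 10 in all 9 libraries, and its mean of 1.44 ± 0.122 FPKM in control lay beyond the SD of the next gene, Mfap5.

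The order was different in bleomycin. Fbln2 led in all 3 bleomycin libraries, Mfap4 came next and then Fbn1, and each of these steps was wider than the SDs. Eln held rank 2 to 4 in control, rank 8 to 9 in bleomycin and rank 3 to 6 in nitrate. Between Efemp2 at 20.5 ± 3.23 and Eln at 9.96 ± 2.76 FPKM in bleomycin, each gene overlapped the next.

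**Figure D1:**
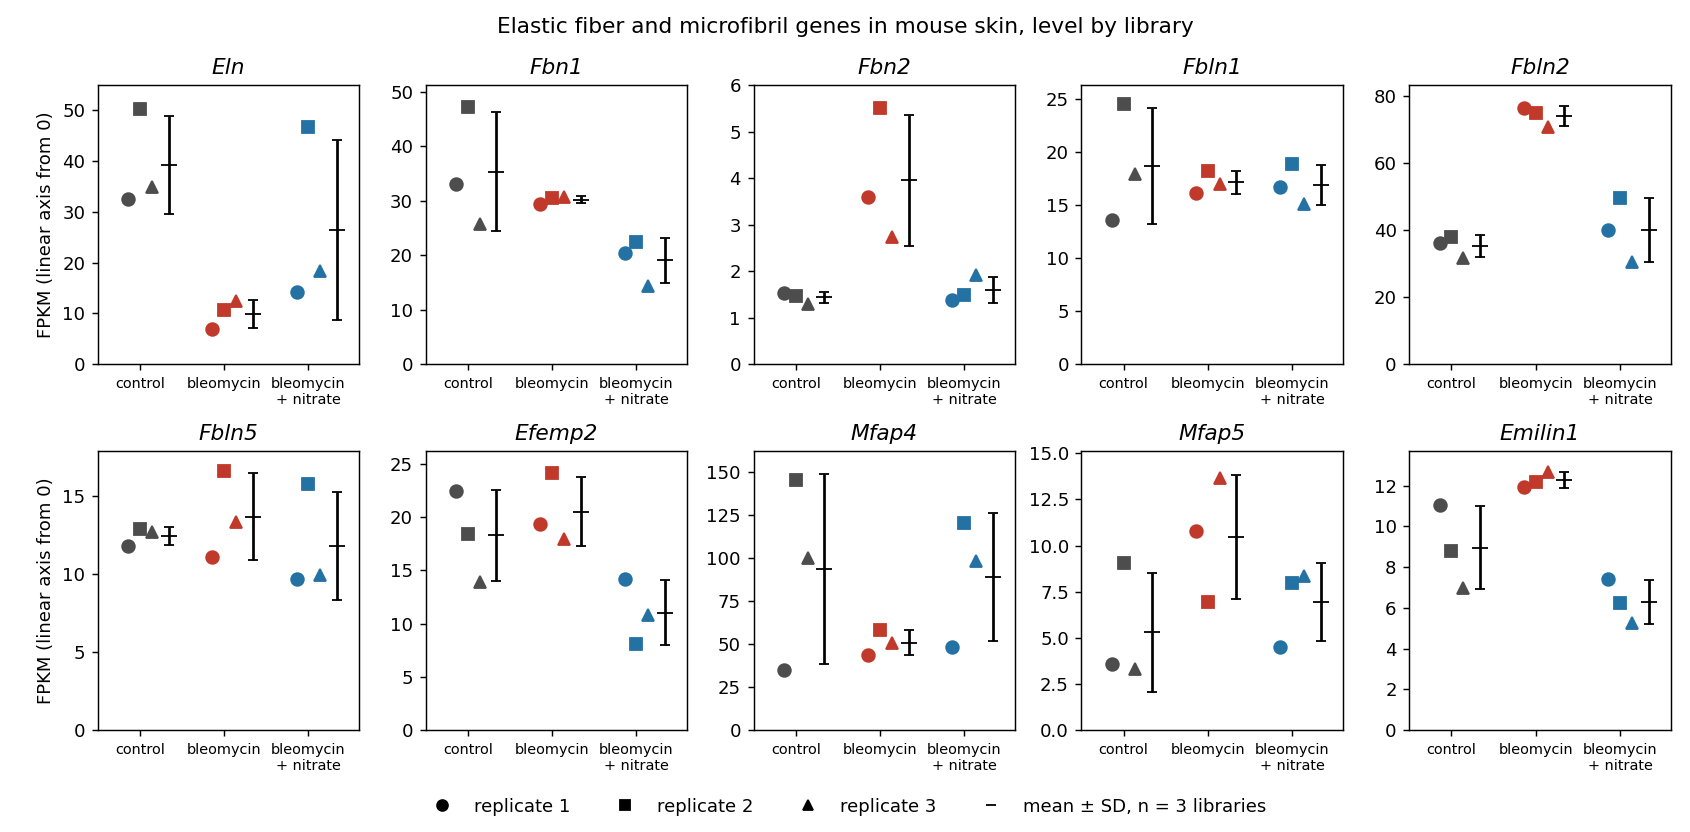
Level of each of the 10 genes by library, in FPKM on a linear axis from 0; symbols are replicates, bars are mean ± SD of 3 libraries. Eln is lower and Fbn2, Fbln2 and Emilin1 are higher in all bleomycin than in all control libraries.

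Bleomycin skin was first set against control skin, to see what the drug did to these genes. Eln fell, Fbln2 and Fbn2 rose, and the other 7 genes did not pass. The test thus called 3 of 10 genes, 2 higher and 1 lower, where 8.43% of all tested genes were called, 4.74% higher and 3.69% lower. The 10 genes were chosen with earlier results of these data known, so such shares are set side by side as a description. The groups did not overlap for 3 genes that were higher and 1 that was lower, beside 18.4% and 17.3% of all tested genes (35.7% in all). At an unadjusted p under 0.05 there were 5 of the 10, beside 26.9% of all tested genes. The median log2 difference of the 10 genes was 0.14, and that of all tested genes 0.01.

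Eln (ENSMUSG00000029675, chromosome 5, 134702593 to 134747323, minus strand, mm10) encodes tropoelastin, the monomer of the fiber core. It stood at 32.5, 50.2 and 34.9 FPKM in control and at 6.94, 10.6 and 12.3 in bleomycin. All bleomycin libraries lay below all controls. The mean went from 39.2 ± 9.58 to 9.96 ± 2.76 FPKM, 0.254 times the control level, and Eln fell by 1.88 ± 0.41 on the log2 scale (95% interval -2.81 to -0.95, adjusted p = 0.0291 by limma). Relative to the mean of the fibroblast markers, which was itself lower in bleomycin, Eln differed by -1.38 (adjusted p = 0.00194). That scaling moved the bleomycin differences of all genes up alike and put the median of all tested genes at 0.51. With the hair follicle list as a covariate the Eln difference was -1.90 (adjusted p = 0.0466). The call was lost with no filter (adjusted p = 0.0651) and without any 1 of the 6 libraries compared (0.0609, 0.112 and 0.0681 on dropping control 1, 2 and 3, and 0.0852, 0.0653 and 0.0638 on dropping bleomycin 1, 2 and 3), and over the alternatives the adjusted p ranged from 0.00194 to 0.137. The log2 difference ranged from -2.04 to -1.38.

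The fibrillins form the microfibril backbone, Fbn1 as the main fibrillin of adult tissue and Fbn2 as one made mostly before birth and during repair. Fbn2 stood at 1.54, 1.48 and 1.30 FPKM in control and 3.61, 5.51 and 2.74 in bleomycin, with no overlap. It rose 2.75-fold in mean FPKM (0.99 ± 0.20 on the log2(FPKM + 1) scale, 95% interval 0.53 to 1.44, adjusted p = 0.0225 by limma). Fbn1 (ENSMUSG00000027204, chromosome 2, 125300594 to 125507993, minus strand, mm10) stood at 33.04, 47.2 and 25.7 FPKM in control and 29.4, 30.5 and 30.7 in bleomycin. The bleomycin values lay inside the control range, and the difference of -0.17 ± 0.23 did not pass (adjusted p = 0.658). Fbn2 made up 4.44%, 3.03% and 4.82% of the summed fibrillin FPKM in control and 10.9%, 15.3% and 8.19% in bleomycin, a share higher in every bleomycin than in every control library. In nitrate the share was 6.37%, 6.23% and 11.8%, also above all controls and overlapping bleomycin. The call of Fbn2 was lost with no filter (adjusted p = 0.0518), without control 1 (0.0583), control 2 (0.0794), control 3 (0.0690) or bleomycin 1 (0.0626), over a range of 0.00160 to 0.119.

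Fibulins are secreted glycoproteins that bind elastin and fibrillin. Fbln2 (ENSMUSG00000064080, chromosome 6, 91212455 to 91272540, plus strand, mm10), found in dermal elastic fibers and basement membranes, stood at 36.3, 37.9 and 31.7 FPKM in control and 76.5, 75.0 and 70.7 in bleomycin. The groups lay far apart and each was narrow. Fbln2 rose 2.10-fold in mean FPKM (1.05 ± 0.17 on the log2(FPKM + 1) scale, 95% interval 0.66 to 1.44, adjusted p = 0.0116 by limma). Its call was lost in 1 of the 22 alternatives, without both control 1 and bleomycin 1 (adjusted p = 0.0945), the libraries lowest in hair follicle markers, where the difference was still 1.05 and where none of the 10 genes was called (Eln -1.78, adjusted p = 0.137; Fbn2 1.05, adjusted p = 0.119).

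The other fibulins did not pass. Fbln1, a fibulin of the fiber core and of many matrices, stood at 13.6, 24.5 and 17.9 FPKM in control and 16.1, 18.2 and 16.98 in bleomycin (-0.08 ± 0.19, 95% interval -0.52 to 0.35, adjusted p = 0.813 by limma). Fbln5, which tethers elastin to microfibrils and to integrins, stood at 11.8, 12.9 and 12.7 FPKM in control and 11.1, 16.6 and 13.4 in bleomycin (0.11 ± 0.20, 95% interval -0.34 to 0.57, adjusted p = 0.753). Efemp2, the fibulin-4 that brings lysyl oxidase to elastin, stood at 22.5, 18.4 and 13.9 FPKM in control and 19.4, 24.1 and 17.97 in bleomycin (0.17 ± 0.23, 95% interval -0.35 to 0.69, adjusted p = 0.666). The groups overlapped for all 3 genes. The ratio of Fbln2 to Fbln1, both in FPKM, was 2.67, 1.55 and 1.77 in control and 4.75, 4.12 and 4.16 in bleomycin, so that Fbln2 gained over its relative in every bleomycin library.

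Of the 3 microfibril-associated genes among the 10, none passed, and Emilin1 had the smallest adjusted p. Emilin1 (ENSMUSG00000029163, chromosome 5, 30913402 to 30921277, plus strand, mm10) encodes a glycoprotein at the border of core and microfibrils that in mice restrains the processing of TGF-beta. It stood at 11.05, 8.81 and 6.99 FPKM in control and 11.95, 12.2 and 12.7 in bleomycin, without overlap (0.44 ± 0.17, adjusted p = 0.141 by limma; 0.29 without control 3, adjusted p = 0.327). Mfap5, a small microfibril glycoprotein, stood at 3.57, 9.03 and 3.32 FPKM in control and 10.8, 6.93 and 13.7 in bleomycin (0.93 ± 0.37, adjusted p = 0.157). The groups overlapped for Mfap5 through control 2 and bleomycin 2. Relative to the fibroblast markers both were called higher, Mfap5 at 1.43 (adjusted p = 0.00267) and Emilin1 at 0.94 (adjusted p = 0.0313). That scaling put the median of all tested genes at 0.51, so these values are to be read against it.

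Mfap4 was the most variable of the abundant members in control. It stood at 35.3, 145.6 and 100.3 FPKM in control and 43.7, 58.5 and 50.7 in bleomycin, and at 48.4, 120.8 and 98.8 in nitrate. Replicate 1 was the lowest of each group, and control 1 lay below all bleomycin libraries. The difference between bleomycin and control was -0.66 ± 0.51 (adjusted p = 0.441 by limma), and it was -1.24 without control 1 (adjusted p = 0.107), -0.23 without control 2 (0.842) and -1.14 without both control 1 and bleomycin 1 (0.202). Control 1 and bleomycin 1 were also lowest in hair follicle markers, and nitrate 1, with a hair follicle mean of 7.41, was not. The part of hair follicle content in the low replicate 1 values was not tested. With the hair follicle list as a covariate the Mfap4 difference between bleomycin and control was -0.82 (adjusted p = 0.363).

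**Figure D2:**
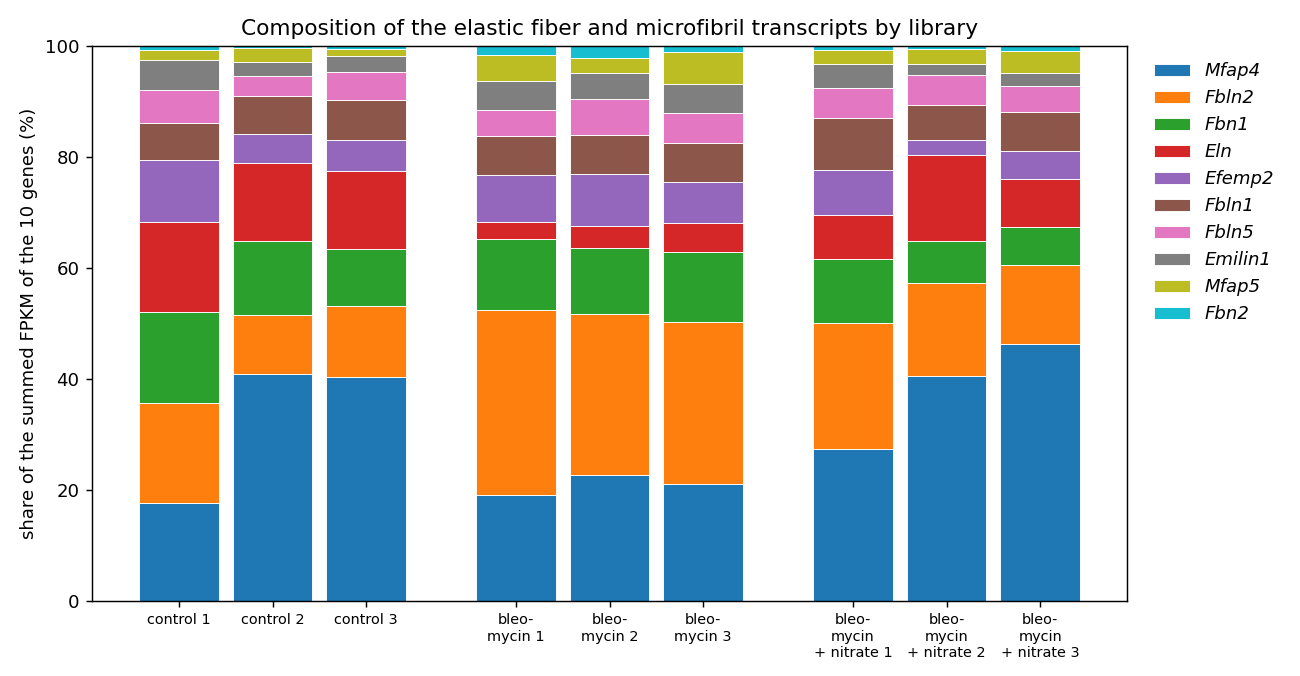
Share of each gene, in percent, in the summed FPKM of the 10 genes, by library. The Eln share is smallest and the Fbln2 share largest in the 3 bleomycin libraries.

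The sum over the 10 genes was 269 ± 79.3 FPKM in control, 243 ± 14.4 in bleomycin and 229 ± 62.0 in nitrate (SD, n = 3 each), so the groups overlapped. The Eln share of that sum was 14.8 ± 1.22% in control, 4.08 ± 1.04% in bleomycin and 10.8 ± 4.25% in nitrate. The Fbln2 share was 13.8 ± 3.81%, 30.5 ± 2.42% and 17.9 ± 4.32%. The Eln and Fbln2 shares of the 3 bleomycin libraries did not overlap those of the other groups, whereas Fbln1 took 6.94 ± 0.221%, 7.03 ± 0.0221% and 7.61 ± 1.62%. Because shares sum to 100%, a larger share of one gene lowers that of the others. The Eln to Fbn1 ratio of FPKM, core over scaffold, was 0.984, 1.06 and 1.36 in control, 0.236, 0.348 and 0.402 in bleomycin and 0.697, 2.08 and 1.28 in nitrate.

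The comparison of nitrate with bleomycin asked what topical nitrate changed in skin given the drug. None of the 10 genes passed limma's test, where 0% of all tested genes were called and the smallest adjusted p of any gene was 0.0619. At an unadjusted p under 0.05 there were 6 of the 10 genes and 2624 genes in all, 17.9%. With the replicate number as a block limma called 10 genes, with voom on the recovered reads 0, and none of them was one of the 10. The estimates of 8 genes lay below 0 and those of Eln and Mfap4 above, with a median of -0.59 beside -0.003 over all tested genes. The groups did not overlap for 5 genes that were lower in nitrate and 1 that was higher, beside 11.8% and 9.4% of all tested genes. This comparison and that of bleomycin with control use the same 3 bleomycin libraries, so opposite signs in them are not independent.

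Eln, the core gene, stood at 14.2, 46.6 and 18.4 FPKM in nitrate, each above the highest bleomycin value of 12.3. Nitrate 2 lay within the control range and the other two below it. The difference from bleomycin was 1.17 ± 0.41 (95% interval 0.24 to 2.10, adjusted p = 0.193 by limma) and that from control -0.71 ± 0.41 (adjusted p = 0.260). Without nitrate 2 the difference from bleomycin was 0.68 (adjusted p = 0.203), and Eln differed from control by -1.20 (adjusted p = 0.0248), so 1 library decided that call. In that setting 2882 of 14645 tested genes were called between nitrate and control, beside 1249 in the main fit. Over all alternatives the adjusted p of Eln against control ranged from 0.0248 to 0.580.

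The scaffold genes were lower in nitrate than in bleomycin, short of the threshold. Fbn2 stood at 1.38, 1.49 and 1.92 FPKM in nitrate against 3.61, 5.51 and 2.74 in bleomycin (-0.90 ± 0.20, adjusted p = 0.115 by limma). Fbn1 stood at 20.3, 22.4 and 14.4 FPKM against 29.4, 30.5 and 30.7 (-0.66 ± 0.23, adjusted p = 0.190). Neither gene overlapped between the groups. Fbn2 in nitrate was near control (0.09 ± 0.20, 95% interval -0.37 to 0.54, adjusted p = 0.782), while Fbn1 lay below all controls (-0.84 ± 0.23, 95% interval -1.35 to -0.32, adjusted p = 0.0561). Fbn1 passed without control 3 (-1.04, adjusted p = 0.0427) and without nitrate 2 (-0.96, adjusted p = 0.0357), over a range of 0.0357 to 0.359. Those settings called 711 and 2882 of all tested genes, beside 1249 in the main fit. In the same comparison 4 of 8 smooth muscle, 4 of 8 endothelial, 5 of 8 fat cell, 1 of 8 skeletal muscle and 1 of 12 fibroblast markers were lower in nitrate. Over all tested genes 4.9% were lower and 3.63% higher. Of the tested keratinocyte markers 1 of 8 was higher, and of the cartilage markers 1 of 2. All 17 hair follicle estimates lay above 0 (median 4.21), with none called. The part of these lists in the Fbn1 level was not tested. Relative to the fibroblast markers Fbn1 differed from control by -0.40 (adjusted p = 0.303), where the median of all tested genes was 0.45.

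Among the fibulins Fbln2 and Efemp2 were lower in nitrate than in bleomycin without overlap. Fbln2 stood at 40.2, 49.7 and 30.6 FPKM in nitrate, all below the lowest bleomycin value of 70.7 (-0.89 ± 0.17, 95% interval -1.28 to -0.50, adjusted p = 0.0938 by limma). Its difference from control was 0.16 ± 0.17 (95% interval -0.23 to 0.55, adjusted p = 0.548). Efemp2 stood at 14.2, 8.06 and 10.8 FPKM (-0.86 ± 0.23 against bleomycin, adjusted p = 0.136). Against control Efemp2 differed by -0.69 ± 0.23 (adjusted p = 0.0891), with nitrate 1 above the lowest control. Fbln1 stood at 16.7, 18.8 and 15.1 FPKM and Fbln5 at 9.70, 15.8 and 9.95, and both overlapped bleomycin and control.

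Emilin1 stood at 7.42, 6.23 and 5.24 FPKM in nitrate, all below bleomycin (-0.87 ± 0.17, 95% interval -1.26 to -0.49, adjusted p = 0.0938 by limma). Its nitrate 1 value lay above the lowest control, and the difference from control was -0.44 ± 0.17 (adjusted p = 0.120). Mfap5 stood at 4.49, 7.97 and 8.35 FPKM and overlapped both other groups. Mfap4 differed from control by 0.05 ± 0.51 (95% interval -1.11 to 1.22, adjusted p = 0.953), an interval too wide to exclude a change of more than 1 in either direction.

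Nitrate against control, the comparison of treated skin with healthy skin, thus had 0 of the 10 genes called, where 8.53% of all tested genes were, 3.63% higher and 4.9% lower. At an unadjusted p under 0.05 there were 3 of the 10 and 31.5% of all tested genes, and the members' median was -0.10 beside 0.02. Fbn1 was the single member without overlap, lower in nitrate, where 17.5% of all tested genes were lower without overlap and 34.8% did not overlap in either direction.

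**Figure D3:**
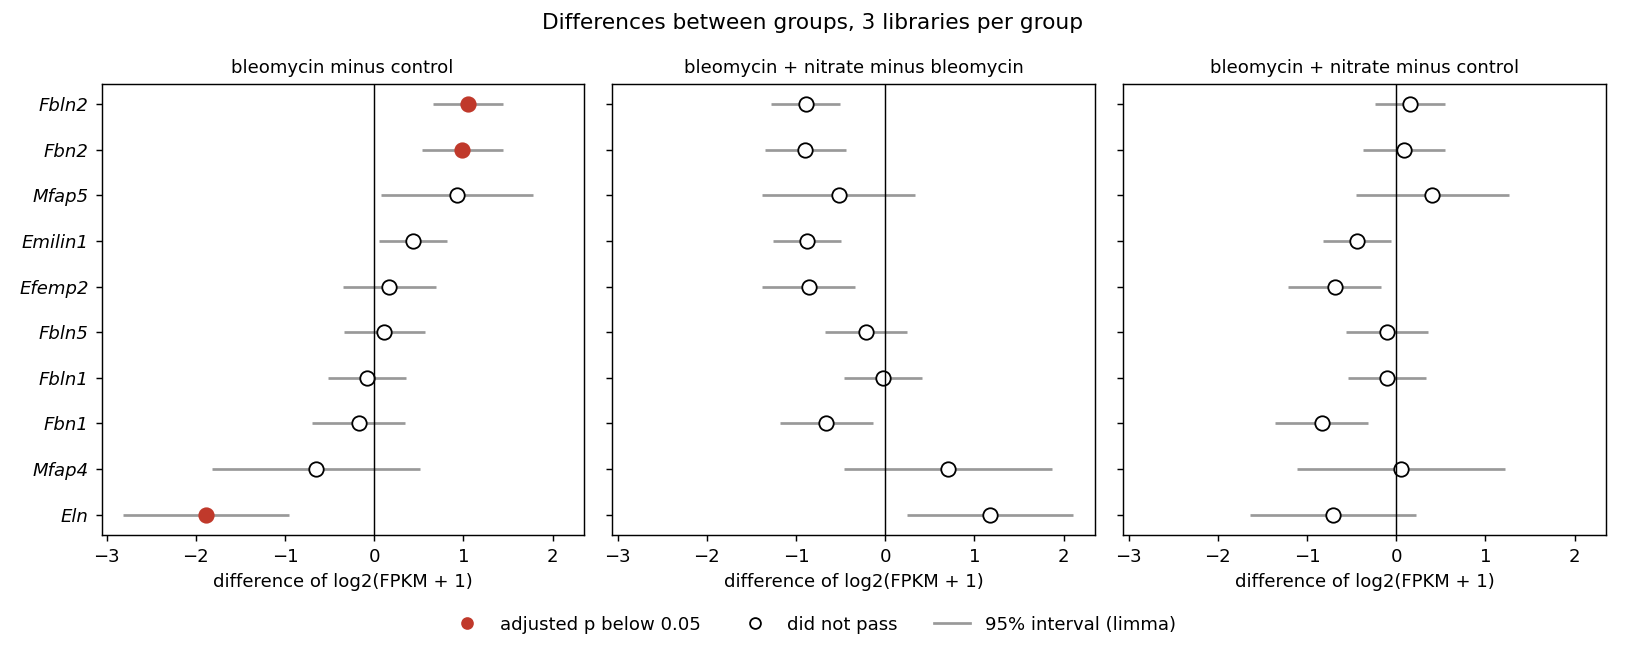
Difference of log2(FPKM + 1) between groups with its 95% interval from limma, for the 10 genes ordered by the first panel; filled points passed at an adjusted p below 0.05. Eln, Fbn2 and Fbln2 passed between bleomycin and control, and none passed in the other panels.

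Across the 9 libraries the 10 genes did not vary as 1 block. The Pearson correlation of log2(FPKM + 1) was 0.87 between Efemp2 and Emilin1, 0.83 between Fbn2 and Fbln2 and 0.74 between Fbln2 and Emilin1. Eln went with Mfap4 (0.66) and opposite to Fbn2 (-0.75) and Fbln2 (-0.67). These correlations run over 3 groups that share treatment and tissue content and are given as a description.

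The genes whose pattern was most like Eln over the 9 libraries were Ecm2 (Pearson r = 0.988), Gm32219 (0.978), Ltbp4 (0.978), Tnxb (0.975) and Clec3b (0.972). Ecm2 encodes a matrix protein and Tnxb the large glycoprotein tenascin-X of dermal collagen. Tnxb stood at 26.7, 37.8 and 22.7 FPKM in control, 5.49, 7.27 and 8.63 in bleomycin and 12.2, 28.0 and 9.75 in nitrate. Ecm2 stood at 7.60, 14.5 and 9.55, at 1.999, 2.44 and 2.84, and at 3.91, 10.6 and 4.92 FPKM in the same order. Nitrate 2 was the highest nitrate library for Eln and for all 5 of these genes. Clec3b, the plasminogen-binding protein tetranectin, had the widest range, from 7.61 FPKM in bleomycin 1 to 161 in control 2.

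Fbn1 had other companions, Nrbp1 (r = 0.979), Cers2 (0.965), Ppm1f (0.965), Tysnd1 (0.964) and Rab1b (0.961). Their ranges were narrower than that of Fbn1. Rab1b, a GTPase of transport from the endoplasmic reticulum, ran from 83.0 FPKM in nitrate 3 to 105.4 in control 2, and Fbn1 from 14.4 to 47.2 in the same libraries.

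**Figure D4:**
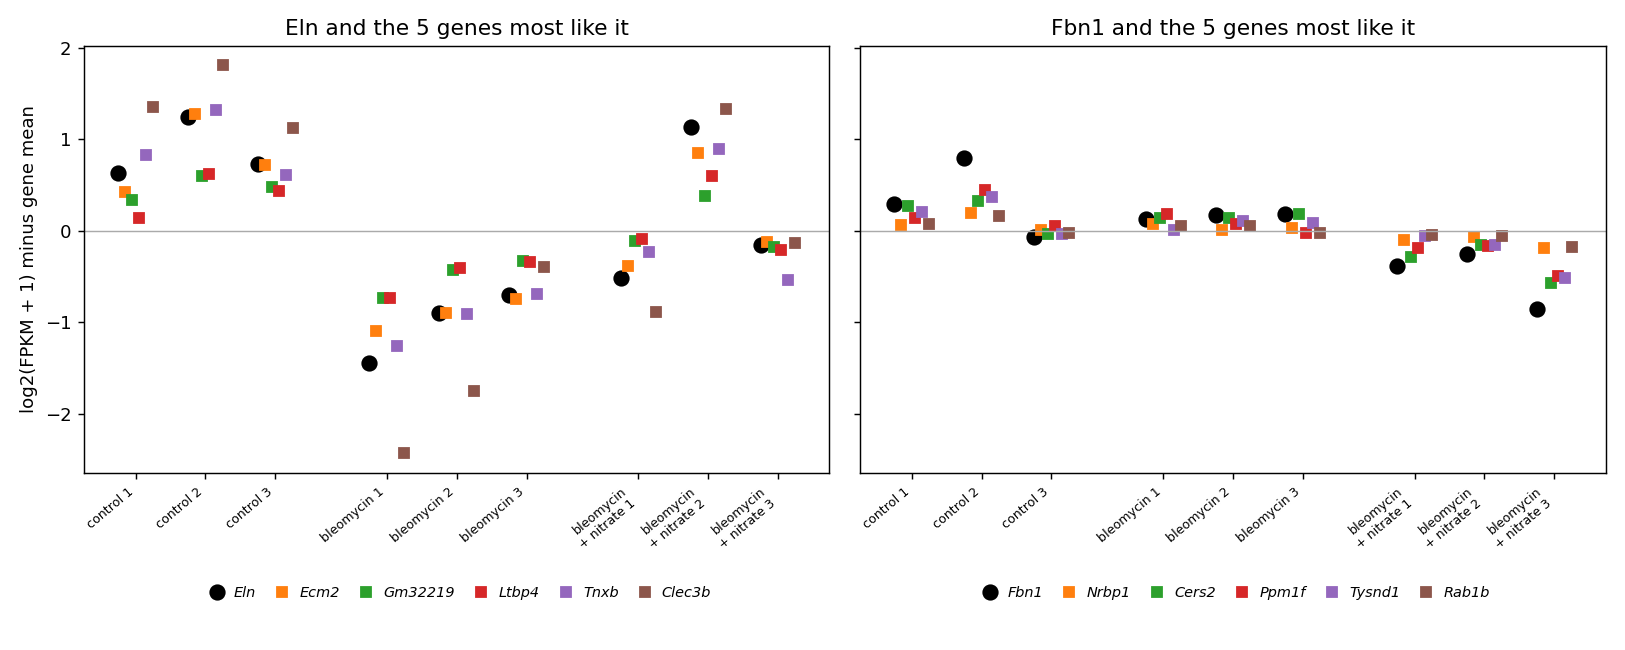
log2(FPKM + 1) minus each gene's mean over 9 libraries, for Eln and Fbn1 (black circles) and the 5 genes most correlated with each (squares), by library. Eln and its 5 companions are below their means in all bleomycin libraries and highest among the nitrate libraries in nitrate 2, and Fbn1 is lowest in nitrate 3.

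The genes that cross-link, regulate, cut or bind elastic fibers were read from 7 lists of 55 genes, of which 44 passed the filter and were tested. The lists were chosen with earlier results of these data known, so their counts are a description and no test against all genes. Between bleomycin and control 6 of the 44 rose and 4 fell, beside 4.74% and 3.69% of all tested genes. Between nitrate and bleomycin 0 passed, and between nitrate and control 1 was higher and 4 were lower, beside 3.63% and 4.9% of all tested genes.

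Of the 5 lysyl oxidase genes, whose enzymes cross-link elastin and collagen, Loxl3 rose with bleomycin. It stood at 2.91, 3.75 and 2.42 FPKM in control and 7.36, 5.39 and 9.99 in bleomycin (1.07 ± 0.27, adjusted p = 0.0471 by limma), and at 3.17, 1.77 and 1.24 in nitrate. No bleomycin value overlapped either other group. Its call was lost in 12 of 21 alternatives, among them each library of the 2 groups left out except bleomycin 2 (adjusted p up to 0.184). Lox itself stood at 40.2, 51.7 and 36.7 FPKM in control and 56.1, 40.1 and 68.7 in bleomycin and did not pass (adjusted p = 0.531). Loxl2 was lower in nitrate than in control, at 10.97, 13.3 and 9.74 FPKM against 18.5, 26.2 and 18.0 (-0.82 ± 0.19, adjusted p = 0.0383). The median of the list was 0.33 for bleomycin against control, where that of all tested genes was 0.01.

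The 4 latent TGF-beta binding proteins, relatives of the fibrillins, went in different directions. Ltbp2, which binds fibrillin-1 and holds no TGF-beta, stood at 2.86, 5.05 and 3.16 FPKM in control, 17.6, 14.1 and 17.0 in bleomycin and 6.78, 2.99 and 2.24 in nitrate. It rose with bleomycin by 1.90 ± 0.31 (adjusted p = 0.0120 by limma), a call lost in 1 alternative, without both control 1 and bleomycin 1 (adjusted p = 0.104). Ltbp1, which holds latent TGF-beta in the matrix, fell from 7.51 ± 0.840 to 3.67 ± 0.930 FPKM (-0.88 ± 0.18, adjusted p = 0.0248) and was also lower in nitrate than in control (-0.88 ± 0.18, adjusted p = 0.0305). Ltbp4, which with fibulin-5 is needed for elastin assembly in mice, stood at 62.3, 86.9 and 76.7 FPKM in control, 33.6, 42.2 and 44.1 in bleomycin and 52.7, 85.9 and 48.5 in nitrate. All bleomycin values of Ltbp4 lay below all others, and its difference from control of -0.89 ± 0.23 fell just short (adjusted p = 0.0515). Ltbp1 lost its bleomycin call in 7 of 21 alternatives, among them without control 1, control 2, bleomycin 1 or bleomycin 3 (adjusted p 0.0722 to 0.0949). It was also lost relative to the fibroblast markers (-0.38, adjusted p = 0.342), where the median of all tested genes was 0.51.

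Among 3 tested ADAMTS and ADAMTS-like genes of the 8 found, Adamts10, a protease that binds fibrillin-1, fell from 4.87 ± 0.731 to 2.84 ± 0.0791 FPKM (-0.61 ± 0.14, adjusted p = 0.0384 by limma). Relative to the fibroblast markers that difference was -0.10 (adjusted p = 0.798), where the median of all tested genes was 0.51. The call was lost in 9 of 21 alternatives. Of 7 tested relatives of the 10 genes and other microfibril-associated genes none was called in any comparison. Mfap2, the partner of Mfap5 on microfibrils, stood at 37.4, 57.9 and 41.1 FPKM in control, 13.9, 30.7 and 16.4 in bleomycin and 13.9, 31.6 and 32.6 in nitrate. Both groups given bleomycin lay below all controls (-1.18 ± 0.38 for bleomycin, adjusted p = 0.0953).

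Of 8 tested proteases able to cut elastin, 2 rose with bleomycin, beside 4.74% of all tested genes. The estimates of 6 lay above 0 and those of Ctsk and Mmp2 below. Ctsk went from 171 ± 11.1 to 101 ± 26.0 FPKM without overlap and did not pass (-0.78 ± 0.31, adjusted p = 0.154 by limma), and Mmp2 differed by -0.02 ± 0.27. Mmp12, the macrophage elastase, stood at 1.17, 1.92 and 2.61 FPKM in control, 7.32, 29.1 and 15.2 in bleomycin and 4.97, 6.17 and 6.07 in nitrate (2.49 ± 0.41 for bleomycin against control, adjusted p = 0.0119 by limma). Ctsl, a lysosomal cysteine protease, went from 32.6 ± 3.33 to 63.9 ± 5.04 FPKM (0.95 ± 0.15, adjusted p = 0.0112) and was also higher in nitrate than in control, at 56.2 ± 9.66 (0.76 ± 0.15, adjusted p = 0.0280). No library of either group given bleomycin reached down to control for these genes. The list's median was 0.70 beside 0.01 over all tested genes. Leukocyte markers were higher in bleomycin beside them (1 of 6 tested), and their part in the protease levels was not tested. Without control 2 the adjusted p of Mmp12 was 0.05002 and that of Ctsl 0.0503, each just above the threshold, and Ctsl was also lost without both control 1 and bleomycin 1 (adjusted p = 0.0763).

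Among 6 tested inhibitors of such proteases 1 rose and 1 fell. Slpi, a secreted inhibitor of neutrophil elastase, stood at 2.55, 0.35 and 0.78 FPKM in control, 26.6, 17.4 and 8.03 in bleomycin and 4.53, 4.07 and 2.45 in nitrate (3.02 ± 0.46 for bleomycin against control, adjusted p = 0.00960 by limma). Timp4, a tissue inhibitor of metalloproteinases, fell from 5.03 ± 0.679 to 0.951 ± 0.343 FPKM (-1.64 ± 0.17, adjusted p = 0.00387), and stood at 0.996 ± 0.209 in nitrate (-1.59 ± 0.17 against control, adjusted p = 0.00761). Timp4 thus stood apart from control in both groups given bleomycin. The calls of Slpi and Timp4 between bleomycin and control held in all alternatives run for them, 22 and 21.

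Of 11 integrin and elastin receptor genes, Itga8, an integrin chain of smooth muscle and fibroblasts, fell from 3.27 ± 0.207 to 1.46 ± 0.107 FPKM (-0.79 ± 0.12, adjusted p = 0.00886 by limma), and stood at 1.94 ± 0.290 in nitrate (-0.54 ± 0.12 against control, adjusted p = 0.0338). Smooth muscle markers were lower in the same groups, and their part in the Itga8 level was not tested. Relative to the fibroblast markers the bleomycin difference of Itga8 was -0.29 (adjusted p = 0.469), where the median of all tested genes was 0.51. Ctsa, a subunit of the elastin receptor complex, rose from 33.9 ± 2.05 to 52.6 ± 4.46 FPKM (0.62 ± 0.12, adjusted p = 0.0205) and lost its call without control 2, control 3, bleomycin 1 or bleomycin 3 (adjusted p 0.0660 to 0.0849) and without both control 1 and bleomycin 1 (0.124).

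Of the 5 listed genes called between nitrate and control, Loxl2 lost its call in 12 of 22 alternatives (adjusted p up to 0.307), Ltbp1 in 8 of 21 (up to 0.286), Ctsl in 9 of 22 (up to 0.216) and Itga8 in 14 of 21 (up to 0.812). All 4 lost it with no filter and without control 1 or control 2. Relative to the fibroblast markers the differences were -0.39 for Loxl2, -0.44 for Ltbp1 and -0.11 for Itga8, where the median of all tested genes was 0.45. Timp4 lost its call with the hair follicle list as a covariate (0.0591).

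**Figure D5:**
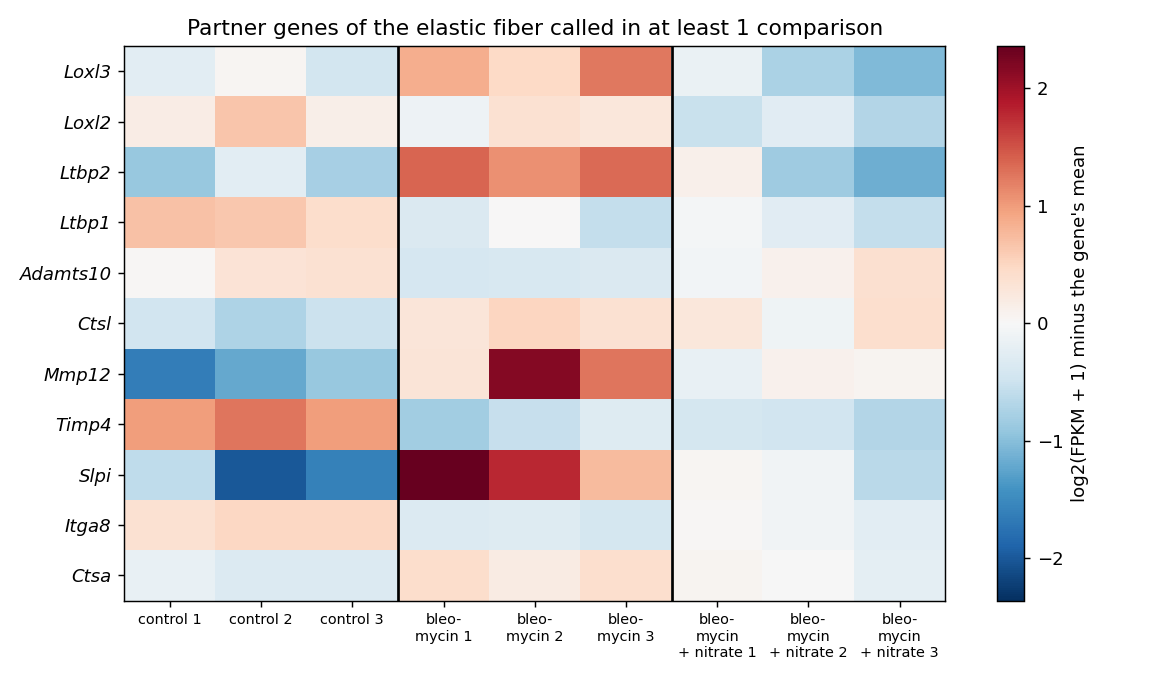
log2(FPKM + 1) minus the gene's mean over 9 libraries (color), for the 11 listed genes called in at least 1 comparison, by library. Loxl3, Ltbp2 and Slpi are highest in the 3 bleomycin libraries, while Timp4, Ltbp1 and Itga8 are highest in the 3 control libraries.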

How the data were processed

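Gene levels in 9 mouse skin libraries (3 groups of 3, taken from the sample titles) were read from 1 table of FPKM that the authors deposited, on genome build mm10 per the submitters' processing notes. Per the labels' protocols, column-purified total RNA went into SMARTer mRNA libraries. The sources used here name no aligner, counter, strand setting or FPKM method. FPKM times gene length fell on whole reads within 7.70e-05, which gave the read numbers. The FPKM values carry a further scaling per library, beyond the totals of these reads, of a kind not stated.

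Genes with at least 1 FPKM in at least 3 libraries (14645) entered limma 3.58.1 (R 4.3.3) as log2(FPKM + 1), in a single model of the 3 group means (eBayes with trend and robust, two-sided, Benjamini-Hochberg). For a symbol on several rows, which held for 102 symbols, the row with the highest mean was used. The 10 genes, the 7 pathway lists and the 9 marker lists were chosen with earlier results of these data known. Of the pathway lists every gene called in any comparison was named, at most 4 a list, with Eln and Fbn1 joined by the 5 genes most correlated with each. Lox, Mfap2, Ltbp4, Ctsk and Mmp2 were added as uncalled members of lists after their values were seen. Adamtsl6 was not found under that symbol.

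Exons on the opposite strand overlap Eln (Gm30003, 267 bases), Fbn1 (Gm9913, 2442 bases), Fbn2 (Gm26507, 129 bases), Efemp2 (Mus81, 173 bases) and Mfap4 (Mapk7, 89 bases) in GENCODE M21, and without a stated strand setting reads there cannot be assigned with certainty. Those partners stood at 0 to 5.97 FPKM. The deposited gene lengths of Fbn2 (10480 bases) and Efemp2 (2648) differed from their merged exons in M21 (13215 and 3788). The FPKM of these genes, and their ranks and shares, therefore depend on the gene model used. Alternatives were pseudocounts, filters, scalings, the samples in the fit, a replicate block, library weights, voom and leaving out libraries, 20 planned and 2 added after the data were seen (both lowest hair follicle libraries left out, and the hair follicle list as a covariate). The test was tried on simulated data. Plots used matplotlib 3.10.9 (Python 3.11.15).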

Additional observations from a re-analysis of the deposited data

How the results depend on the processing

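Between bleomycin and control, 3 of the 10 genes passed; the number was 1 with no filter, 5 relative to the fibroblast markers, 0 without both control 1 and bleomycin 1, and 1 to 3 with 1 library left out. Between nitrate and bleomycin it was 0 in all 22 alternatives. Between nitrate and control it was 0, 1 (Fbn1, adjusted p = 0.0442 by limma) with the replicate block, and 0 to 2 with 1 library left out. The 2 were Eln and Fbn1 without nitrate 2, where 2882 of all tested genes were called. Same-numbered libraries deviated together unevenly (correlations -0.391 to 0.517), with replicate 3 positive in every pair of groups (0.344 to 0.443). Shared tissue content can enter such correlations, so they cannot decide whether the numbers pair libraries, and the main fit used no pairing. With the block 3 genes passed between bleomycin and control, and the block changed no other call of the 10 genes. Signs turned for uncalled differences alone. Relative to the fibroblast markers, Fbn1 and Fbln1 became 0.33 and 0.42 in bleomycin against control, and Fbln1 and Fbln5 became 0.33 each in nitrate against control. With voom, Fbln1 became 0.0297 in bleomycin against control, 0.0167 in nitrate against bleomycin and 0.0464 in nitrate against control, and Fbln5 0.0424 in the last. Quantile normalization gave 0.0222 for Fbln1 in nitrate against bleomycin. Mfap4 in nitrate against control became -0.26 with library weights, -0.53 without both control 1 and bleomycin 1 and -0.45 with the follicle covariate. The cause was not tested. With 1 library left out, signs turned within these ranges: in bleomycin against control Fbn1 -0.38 to 0.051, Fbln1 -0.28 to 0.12, Efemp2 -0.0013 to 0.32, Fbln5 -0.028 to 0.24; in nitrate against bleomycin Fbln1 -0.099 to 0.052; in nitrate against control Mfap4 -0.53 to 0.48, Fbln1 -0.30 to 0.10, Fbln5 -0.31 to 0.012, Fbln2 -0.00596 to 0.34.

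All tested genes called between bleomycin and control numbered 1234 (56.2% higher). They numbered 2177 (94.8%) relative to the fibroblast markers and 1242 (68.2%) with voom, which put the median of all genes at 0.13. Between nitrate and control they numbered 1249 (42.6%), with 91.8% and 64.1% higher in those settings and medians of 0.45 and 0.18. Voom took the recovered read totals as library sizes and so left out the further scaling held in the FPKM values. The part of that scaling in the voom medians and signs was not tested. Across the other settings the first number ran from 137 without both control 1 and bleomycin 1 to 1947 with library weights, and the last from 9 with the follicle covariate to 2882 without nitrate 2. Between nitrate and bleomycin it was 0, with 112 relative to the fibroblast markers and up to 37 with 1 library left out. Depth was lowest for Mfap5, with 196 reads at the least.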

Other observations

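Some listed genes lay below the filter and were not tested. Mmp7, the protease matrilysin, had 0 reads in all 9 libraries, and the neutrophil proteases Elane and Ctsg stood at 0 to 0.111 and 0 to 1.11 FPKM. Emilin3, a relative of Emilin1, stood at 0.0864 to 0.533 FPKM. Fbln7, a fibulin that was tested and did not pass, stood at 3.31, 11.7 and 7.67 FPKM in nitrate against 1.48, 1.34 and 3.004 in bleomycin, without overlap (1.45 ± 0.42, adjusted p = 0.144 by limma), and was chosen after its values were seen.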
